A study of Mus musculus with 2 samples.

Results

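Interferon-stimulated genes (ISGs) are described here as 38 named mouse genes, each matched by its symbol to the gene list of the deposited count matrix. All 38 were found once among the 31053 genes listed, of which 19114 had at least 1 UMI (unique molecular identifier, the tag that counts 1 captured transcript). They were measured by single-cell RNA-seq from the 5′ end in tumor-associated neutrophils (TANs) of Smad3-wild-type (Smad3-WT, Smad3+/+) and Smad3-deficient (Smad3-KO, Smad3-/-) mice, which both carried subcutaneous tumors of Lewis lung carcinoma (LLC), a mouse lung cancer line. The mice were C57BL/6, of both sexes and 8 to 12 weeks old. For each genotype CD11b+Ly6G+ cells were sorted from 8 tumors that were pooled into 1 library, so the spread between mice is not measured and no test of genotype is possible. The Smad3-KO mice carry the disrupted allele in all their tissues, while the LLC cells are the same line in both hosts. Smad3 itself had 178 UMIs (14.6 CPM, UMIs per 1000000 UMIs) over the kept Smad3-WT cells and 321 UMIs (77.4 CPM) over the kept Smad3-KO cells. The allele is disrupted late in the gene, so UMIs from the 5′ end do not check the genotype.

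Interferons are secreted proteins, and cells release those of type I on sensing foreign or displaced nucleic acid. Type I interferons bind a receptor on almost every cell type and activate a complex that includes STAT2 and IRF9, which binds an interferon-stimulated response element (ISRE) in the promoters of ISGs. Type II interferon acts at a gamma-activated site (GAS) and drives many GTPase genes of this set, while neutrophils respond to both types and carry an ISG programme in infection and in tumors.

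The Smad3-WT library held 4116 barcodes and 23951400 UMIs, and the Smad3-KO library held 2514 barcodes and 4214290 UMIs. After the filter on quality, 3520 Smad3-WT cells (12176201 UMIs) and 2433 Smad3-KO cells (4146792 UMIs) were kept. The upper limit of the filter removed 382 Smad3-WT barcodes with 20000 UMIs or more and 0 Smad3-KO barcodes. Cells fell into 14 clusters, which took 7 class names from marker genes, with the ISGs and other interferon genes left out of the clustering. Although the cells had been sorted as neutrophils, neutrophil-like cells made up 51.8% of the kept Smad3-WT cells and 44.4% of the kept Smad3-KO cells. The class was held by different clusters in the libraries: 1475 of the 1825 Smad3-WT cells were in cluster 1 (led by Mmp9, Il1r2, G0s2 and Cxcr2) and 841 of the 1080 Smad3-KO cells were in cluster 2 (led by Il1a, Stfa2, Csf3 and Lcn2). Cluster 2 held 13 Smad3-WT cells and may be a state of 1 library rather than a cell type. The sex of the pooled mice also differed with genotype: in neutrophil-like cells Xist had 0 UMIs in the Smad3-WT library, which allows up to 3, but 129 UMIs in that of Smad3-KO, while 4 Y-linked genes had 380 and 40 UMIs. Sex and genotype therefore cannot be told apart in any comparison of the libraries. This holds for the ISGs of the set too, none of which lies on a sex chromosome. The libraries shared 73 barcodes, 24 of them among kept cells.

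The promoters that carry the ISRE are shown first for 5 members that the comparisons turn on. RefSeq (GRCm38.p6) gave a promoter for 30 of the 38 members. The entries not found were those of Mx1, Usp18, Ifi204, Ifi27l2a, Dhx58, Zbp1, Parp14 and Rtp4. Of the 30, 16 (53.3%) held the ISRE core GAAANNGAAA on either strand between 250 bases before and 50 bases after the start site, compared with 3.99% of all 27025 genes in the same table. The GAS core TTCNNNGAA, searched in the same windows, was in 20% of the members and in 9.55% of all genes. The 200 bases upstream of the RefSeq start site are given 5′ to 3′ along the gene's own strand, with the ISRE core in capitals on whichever strand it lies, for Isg15 (chr4:156200819-156201018, minus strand), Rsad2 (chr12:26456453-26456652, minus strand), Ifit1 (chr19:34640689-34640888, plus strand), Ifit3 (chr19:34583329-34583528, plus strand) and Ifit3b (chr19:34607757-34607956, plus strand).
Isg15: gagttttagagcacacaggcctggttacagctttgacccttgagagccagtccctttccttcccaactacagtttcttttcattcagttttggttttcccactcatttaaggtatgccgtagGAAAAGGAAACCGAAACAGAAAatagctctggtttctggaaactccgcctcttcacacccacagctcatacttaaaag
Rsad2: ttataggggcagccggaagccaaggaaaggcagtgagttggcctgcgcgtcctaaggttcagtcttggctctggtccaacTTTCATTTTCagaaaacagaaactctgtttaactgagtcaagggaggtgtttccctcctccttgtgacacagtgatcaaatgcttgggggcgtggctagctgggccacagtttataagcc
Ifit1: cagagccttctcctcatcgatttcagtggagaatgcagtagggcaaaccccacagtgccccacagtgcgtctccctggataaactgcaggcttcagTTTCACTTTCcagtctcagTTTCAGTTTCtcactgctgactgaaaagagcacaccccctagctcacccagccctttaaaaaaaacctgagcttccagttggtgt
Ifit3: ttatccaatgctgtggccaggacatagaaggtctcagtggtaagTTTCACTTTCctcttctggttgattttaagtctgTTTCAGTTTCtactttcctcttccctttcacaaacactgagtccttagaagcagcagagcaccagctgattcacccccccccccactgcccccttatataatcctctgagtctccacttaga
Ifit3b: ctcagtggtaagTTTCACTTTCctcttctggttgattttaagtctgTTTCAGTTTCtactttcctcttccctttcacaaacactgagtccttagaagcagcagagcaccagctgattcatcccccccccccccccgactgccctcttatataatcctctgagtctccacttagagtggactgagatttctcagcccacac
Isg15 had 3 overlapping cores that begin 78, 72 and 66 bases before its start site, Rsad2 had 1, and each Ifit promoter had 2. The upstream sequences of Ifit3 and Ifit3b, neighbours on chromosome 19, shared an identical run of 169 bases that includes both cores. Their transcripts are also alike, since 51.2% of the 50-base stretches of Ifit3 occur in another gene, mostly Ifit3b, so the split of UMIs between these 2 genes is uncertain. Stretches shared with another gene made up more than 10% of the transcript in 8 of the 38 members, among them Ifi204 (shared with Ifi211), Igtp (with Irgm2) and Slfn4 (with Slfn3). The members were spread over 14 chromosomes, with 8 on chromosome 11.

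The first question was in which of the sorted cells the ISGs made up the largest share of the transcripts. Neutrophil-like cells had the highest summed ISG level in both libraries. The 38 members together gave 14461 UMIs per 1000000 UMIs of the class (CPM; exact 95% interval 14276 to 14648) in the 1825 Smad3-WT neutrophil-like cells and 19125 CPM (18890 to 19363) in the 1080 Smad3-KO cells. These intervals and all that follow cover counting error only. Macrophage or monocyte-like cells came next, with 10342 CPM in 1090 Smad3-WT cells and 10197 CPM in 102 Smad3-KO cells. Levels in dendritic-like cells were 8590 CPM in Smad3-WT and 5889 CPM in Smad3-KO, in fibroblast-like cells 6891 and 6225 CPM, and in T or NK-like cells 4519 and 5473 CPM. B-like cells, which had 570 cells in the Smad3-KO library and 3 in the Smad3-WT library, had 5726 CPM in Smad3-KO. The 3 Smad3-WT cells had 9 UMIs in all. LLC carcinoma-like cells had 2337 CPM in 390 Smad3-WT cells, the lowest level there among classes of at least 50 cells, and 4896 CPM in 25 Smad3-KO cells, the latter from 100 UMIs. Their median depths were 13440.5 UMIs in Smad3-WT and 607 UMIs in Smad3-KO, so no difference between the libraries is read from this class. Because of the makeup of the libraries, the neutrophil-like class held 26.0% of all ISG UMIs from Smad3-WT and 59.1% from Smad3-KO mice. The macrophage or monocyte-like class held 52.7% and 6.09%. The quotient of 1.39 between all kept cells (7370 and 10259 CPM) thus mixes class shares with levels. A level is also not a count per cell. The median Smad3-WT cell had 5 ISG UMIs if neutrophil-like and 29 if macrophage or monocyte-like, at median depths of 740 and 3376 UMIs. In Smad3-KO these medians were 17 and 16 ISG UMIs, at 1015 and 2075.5 UMIs.

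**Figure D1:**
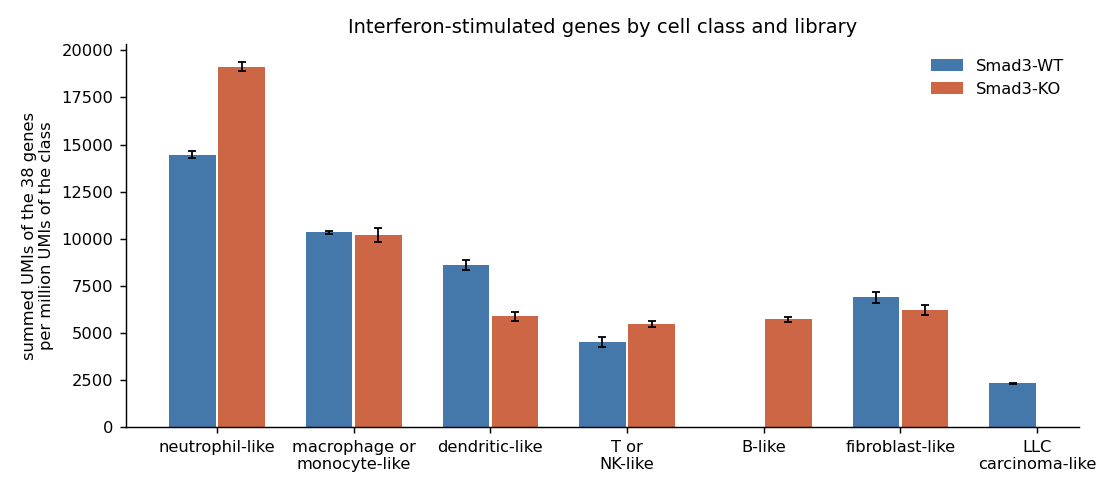
Summed level of the 38 ISGs (CPM, UMIs per 1000000 UMIs of the class) in each cell class for the Smad3-WT and Smad3-KO libraries, with exact 95% intervals that cover counting error only as error bars. Classes of a library with under 50 cells are not drawn. Neutrophil-like cells stand highest in both libraries, at 14461 and 19125 CPM.

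Neutrophil-like and macrophage or monocyte-like cells were compared within each library, where they share mice, sex and sequencing. The summed ISG level was 1.40 times higher in neutrophil-like cells in Smad3-WT (1.38 to 1.42) and 1.88 times higher in Smad3-KO (1.80 to 1.95). In Smad3-WT, 19 of 37 members with at least 20 UMIs were at least 2-fold higher in neutrophil-like cells, against 11.7% of all 9454 genes, and 4 were at least 2-fold lower, against 49% of all genes. The median ratio was 2.0 over the members and 0.513 over all genes. In Smad3-KO, 21 of 36 members were at least 2-fold higher, against 17.2% of 5005 genes, and 3 were at least 2-fold lower, against 41.7%, with medians of 2.36 and 0.640. The members thus stood above the middle of all genes in both libraries.

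Members with high ratios included antiviral effectors and Slfn4. Ifit3b, of the family that binds viral RNA lacking a host cap, had 382 CPM in neutrophil-like and 43.5 CPM in macrophage or monocyte-like Smad3-WT cells, a ratio of 8.78. For Isg20, an exonuclease that degrades single-stranded RNA, the levels were 514 and 85.8 CPM in Smad3-WT and 583 and 74.8 CPM in Smad3-KO, with ratios of 5.99 and 7.79. Slfn4, a Schlafen gene known from myeloid cells, was 5.66 times higher in Smad3-WT and 6.35 times higher in Smad3-KO neutrophil-like cells. The members that were at least 2-fold lower in neutrophil-like cells of both libraries were Bst2 (tetherin, which holds budding virus at the cell surface), at 0.228 and 0.246, and Dhx58 (LGP2, a regulator of RNA sensing), at 0.396 and 0.245. Mx1, a gene of the dynamin-like GTPase family, was nearly missing from neutrophil-like cells, with 6 UMIs in the Smad3-WT and 3 in the Smad3-KO library. Smad3-WT macrophage or monocyte-like cells had 279 (61.0 CPM), which puts the neutrophil-like level at 0.0610 of theirs. Ifi44 had 0 UMIs in the neutrophil-like cells of both libraries, which allows up to 3 in each, and 27 and 20 UMIs over all kept cells.

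Over the classes with at least 50 cells in a library, 29 of the 38 members had their highest level in neutrophil-like cells in each library, and 27 did so in both. The same count was not made over all genes, so no trait of the ISGs is read from it. Some of these members led macrophage or monocyte-like cells by little, such as Xaf1 in Smad3-WT (71.4 against 71.1 CPM) and Ifi204 in Smad3-KO (205.3 against 204.8 CPM). Ifitm3 and Ifi27l2a were abundant members with their highest level in another class. Ifitm3, which blocks fusion of virus with endosomes, had 4229 CPM in macrophage or monocyte-like and 1901 CPM in neutrophil-like Smad3-WT cells, but 2430 and 2235 CPM in Smad3-KO, where the neutrophil-like over macrophage ratio of 0.920 had an interval (0.843 to 1.0) that reaches 1. Ifi27l2a, a small membrane protein gene, had 1625 and 1054 CPM in these classes in Smad3-WT and 2127 and 741 CPM in Smad3-KO. Bst2 was highest in LLC carcinoma-like cells of Smad3-WT (590 CPM) and in dendritic-like cells of Smad3-KO (902 CPM), where neutrophil-like cells had 84.4 and 89.0 CPM. RNA free in the droplets was gauged by genes that each class should lack. In neutrophil-like cells 12 macrophage markers stood at a median of 0.0285 of their macrophage level in Smad3-WT and 0.0236 in Smad3-KO, and in macrophage or monocyte-like cells 11 neutrophil markers stood at 0.0781 and 0.102 of their neutrophil level. The members in macrophage or monocyte-like cells stood at a median of 0.499 and 0.432 of their neutrophil-like level, and 0 of 37 were at or below the marker median in either library. At or below the highest single marker (0.0999 and 0.234) were 0 and 4 of 37. In neutrophil-like cells, 1 of 38 and 0 of 37 members were at or below the median of the macrophage markers. There, 5 of 38 and 5 of 37 were at or below the highest of them (0.546 and 0.628).

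The second question was whether ISG levels of neutrophil-like cells differed with the Smad3 genotype of the mouse. Paired values are given with the Smad3-WT library first and Smad3-KO second, and a ratio is Smad3-KO over Smad3-WT. The summed level was 1.32 times higher in the Smad3-KO library (1.30 to 1.35). Of 36 members with at least 20 UMIs, 27 were above 1 and 9 below, with a median ratio of 1.32 against 0.790 over 6056 genes. Samd9l, Parp14, Stat2, Gbp2, Trim30a, Herc6 and Ddx58 were at least 2-fold higher in the Smad3-KO library, 7 of 36 against 7.66% of all genes, and Ifit3b alone was at least 2-fold lower, 1 of 36 against 18.2%. The median of all genes lies below 1 on this scale. Under median-of-ratios scaling, which shifts all ratios by 0.25 on the log2 scale, the sum was 1.57 times higher, 12 members were at least 2-fold higher against 10.7% of all genes, and Oasl1 and Dhx58 moved from just below to above 1. Among all called genes this scaling moved the share that were higher from 29.6% to 48.0%.

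Part of the comparison sets cluster 1 against cluster 2, so cluster 1, the only neutrophil-like cluster with at least 50 cells of each library, was also compared alone, a choice made after the data were seen. Its 138 Smad3-KO cells had 20548 CPM and its 1475 Smad3-WT cells 14070 CPM, a ratio of 1.46 (1.40 to 1.53). In cluster 8 (Ddit3, Gadd45g and Hilpda), with 27 Smad3-KO cells, the levels were 15539 and 16199 CPM, a ratio of 0.959 whose interval (0.852 to 1.08) includes 1. Cluster 2 had 20278 CPM in Smad3-KO, and cluster 11, whose 74 Smad3-KO cells were led by the granule genes Camp, Ngp and Ltf of immature neutrophils, had 11565 CPM. Within cluster 1, 24 members were above 1 and 12 below, and 6 were at least 2-fold higher, against 8.87% of 4622 genes: Samd9l, Trim30a and Ddx58 as in the whole class, with Ifih1, Oas3 and Xaf1. Of these 6, Ddx58, Ifih1 and Xaf1 had the fewest Smad3-KO UMIs there (17, 11 and 13). Their intervals were wide, at 1.16 to 3.47, 1.31 to 5.41 and 1.15 to 4.12. Parp14, Stat2, Gbp2 and Herc6 stood at 1.57 (0.906 to 2.57), 1.84 (0.759 to 3.89), 1.25 (0.882 to 1.74) and 1.33 (0.515 to 2.89) there, intervals that include 1. The sums by role given below cover the whole neutrophil-like class and were not made within cluster 1.

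**Figure D2:**
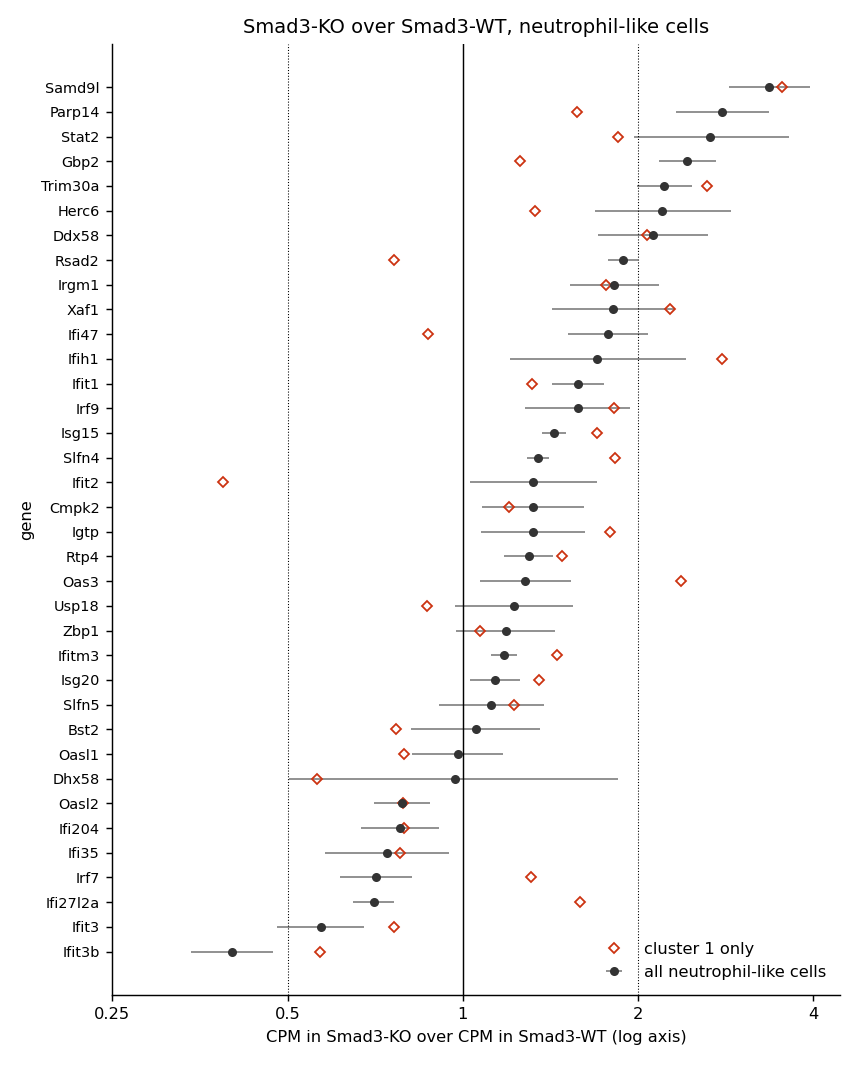
Ratio of the Smad3-KO to the Smad3-WT library (log axis) for the 36 members with at least 20 UMIs in neutrophil-like cells (filled points, with exact 95% intervals that cover counting error only) and in cluster 1 alone (open diamonds). Dotted lines mark 2-fold. Samd9l stands highest at 3.35 and Ifit3b lowest at 0.402, 27 of 36 filled points lie above 1, and the diamonds of Rsad2, Ifit2, Ifi47, Usp18, Bst2, Irf7 and Ifi27l2a lie on the other side of 1 from their points.

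Transcription factors of the interferon response differed from each other. Stat2, which joins IRF9 at the ISRE, had 64 and 139 UMIs (39.7 and 106 CPM), a ratio of 2.66 (1.97 to 3.64). Irf9, the DNA-binding subunit of that complex, had 168 and 216 UMIs, a ratio of 1.58. Irf7, the factor that amplifies type I interferon production, had 523 and 303 UMIs (325 and 230 CPM), a ratio of 0.710 (0.614 to 0.819), and stood on the other side of 1 within cluster 1, at 1.31 (0.934 to 1.79). The sum of the 3 factors was 1.07 times higher (0.960 to 1.19), an interval that includes 1.

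Sensors of foreign nucleic acid split by gene. Ddx58, which encodes the RNA helicase RIG-I, had 133 and 230 UMIs (82.6 and 175 CPM), a ratio of 2.12 (1.70 to 2.64) that was 2.07 within cluster 1. Ifih1, which encodes the related helicase MDA5, had a ratio of 1.70, and Zbp1, a sensor of left-handed nucleic acid, a ratio of 1.19. Ifi204, of the DNA-sensing family that includes IFI16 of humans, was lower, with 424 and 270 UMIs (263 and 205 CPM), a ratio of 0.780 (0.667 to 0.911). Dhx58 had 24 and 19 UMIs and a ratio of 0.970, which at this depth could not be told from 1.

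Genes of the ubiquitin-like modifier system had a summed ratio of 1.44 (1.38 to 1.51) over the whole class. Isg15 gave 3090 of the 3328 UMIs of this sum in Smad3-WT and 3615 of 3924 in Smad3-KO. A sum without Isg15 or within cluster 1 was not made, so no rise of the system as a whole is read from it. ISG15 is the modifier itself and can also be secreted. Isg15 had 3090 and 3615 UMIs (1918 and 2749 CPM), a ratio of 1.43 (1.37 to 1.5), and 1.70 within cluster 1. Herc6, the ligase that attaches ISG15 to proteins in the mouse, had 89 and 160 UMIs, a ratio of 2.20 (1.69 to 2.89). Usp18, the protease that removes ISG15 and restrains the type I receptor, had 149 UMIs in each library, a ratio of 1.23 (0.970 to 1.55), and within cluster 1 a ratio of 0.869 (0.341 to 1.85).

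Antiviral effectors ran in opposite directions within the Ifit and Rsad2 group, while their 12 genes together were 1.32 times higher over the whole class (1.28 to 1.37). Rsad2 gave 1813 of the 6229 UMIs of this sum in Smad3-WT and 2785 of 6736 in Smad3-KO. The sum was not made without Rsad2 or within cluster 1, so no rise of the role as a whole is read from it. Rsad2 encodes viperin, which makes a chain-terminating nucleotide. It had 1813 and 2785 UMIs (1125 and 2118 CPM), a ratio of 1.88 (1.77 to 2.0), but within cluster 1 it was lower in Smad3-KO, at 0.762 (0.602 to 0.952). Ifit1 had 657 and 845 UMIs (408 and 643 CPM), a ratio of 1.58 (1.42 to 1.75). Ifit3, whose protein stabilises the IFIT1 complex, had 421 and 196 UMIs (261 and 149 CPM), a ratio of 0.570 (0.479 to 0.677). Its near copy Ifit3b had 616 and 202 UMIs (382 and 154 CPM), a ratio of 0.402 (0.341 to 0.472). Both of these were lower in Smad3-KO, and their promoters printed above hold the same pair of ISRE cores as that of Ifit1. Ifit3b was also lower within cluster 1, at 0.570 (0.349 to 0.881). Ifit3 stood at 0.762 (0.438 to 1.24) there and Ifit1 at 1.32 (0.975 to 1.74), and both intervals include 1.

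The remaining effectors were mostly near or above 1. Samd9l, a restriction factor of poxviruses and a brake on growth, had 213 and 583 UMIs (132 and 443 CPM), the highest ratio of the set at 3.35 (2.86 to 3.94), and 3.54 within cluster 1. Isg20 had 828 and 767 UMIs, a ratio of 1.13, and Cmpk2, a mitochondrial nucleotide kinase beside Rsad2, had a ratio of 1.32. Of the oligoadenylate synthetase family, which senses double-stranded RNA, Oasl2 had 841 and 540 UMIs (522 and 411 CPM), a ratio of 0.787 (0.705 to 0.878). Oasl1 and Oas3 had ratios of 0.980 and 1.28. Ifit2 had 126 and 136 UMIs and a ratio of 1.32, yet within cluster 1 it had 100 and 3 UMIs, a ratio of 0.387 (0.0785 to 1.16), the only member there that was at least 2-fold lower, against 24.8% of all genes.

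The membrane proteins differed little as a sum over the whole class, 1.05 (1.01 to 1.09), and individually in both directions. The sum was not made within cluster 1, where Ifitm3 (1.45) and Rtp4 (1.48) also stood above 1, so it does not describe that cluster. Ifitm3 had 3062 and 2939 UMIs (1901 and 2235 CPM), a ratio of 1.18 (1.12 to 1.24). Rtp4, a receptor transporter that binds RNA, had 828 and 877 UMIs, a ratio of 1.30. Ifi27l2a had 1698 and 974 UMIs (1054 and 741 CPM), a ratio of 0.703 (0.649 to 0.761), and went the other way within cluster 1, at 1.59 (1.35 to 1.87). Bst2 had 136 and 117 UMIs (84.4 and 89.0 CPM), a ratio of 1.05 (0.816 to 1.36) whose interval includes 1, as did that of its ratio within cluster 1, 0.767 (0.275 to 1.73).

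Interferon-inducible GTPases had the highest summed ratio of any role over the whole neutrophil-like class, 1.98 (1.84 to 2.13). The roles were not ranked within cluster 1, so this rank is not known to hold there. These proteins coat and rupture the vacuoles of intracellular microbes, and most are strongly induced by type II interferon. Gbp2 had 468 and 929 UMIs (290 and 707 CPM), a ratio of 2.43 (2.17 to 2.72), although 1.25 (0.882 to 1.74) within cluster 1. Ifi47, Irgm1 and Igtp had ratios of 1.77, 1.82 and 1.32, so all 4 members were above 1, and within cluster 1 they stood at 0.872, 1.76 and 1.79.

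Of the other members, Slfn4 had the most UMIs of the set in neutrophil-like cells, 4098 and 4507 (2544 and 3428 CPM), a ratio of 1.35 (1.29 to 1.41) that was 1.82 within cluster 1. Trim30a, a TRIM protein that limits signalling by Toll-like receptors, had 510 and 924 UMIs (317 and 703 CPM), a ratio of 2.22 (1.99 to 2.48), and 2.63 within cluster 1. Parp14, a mono-ADP-ribosyltransferase, had 170 and 387 UMIs (106 and 294 CPM), a ratio of 2.79 (2.32 to 3.36). The pro-apoptotic gene Xaf1 had a ratio of 1.81, and Slfn5 a ratio of 1.12. Ifi35, whose product forms a complex with NMI, was lower, with 180 and 109 UMIs, a ratio of 0.742 (0.579 to 0.946).

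Members with an ISRE core in the promoter had a median ratio of 1.5 in neutrophil-like cells (16 members, 14 of them above 1), and the 13 members with enough UMIs and a promoter without the core had a median of 1.32, of which 9 were above 1. Ratios of 2 or more were found for 4 of the 16 members with the core and 2 of the 13 without it. Parp14 (2.79) had no promoter entry. The lowest ratio, that of Ifit3b, belonged to a member with the core, and the highest, that of Samd9l (3.35), to a member without it. This is a description, and binding at a core was not measured.

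Among macrophage or monocyte-like cells the summed level did not differ between the libraries by more than counting error, with 47269 and 2589 UMIs from 1090 and 102 cells (10342 and 10197 CPM), a ratio of 0.986 (0.947 to 1.03). This sum rests on Ifitm3, which had 19330 and 617 UMIs (4229 and 2430 CPM) and a ratio of 0.575, and without Ifitm3 it was 1.27 times higher in Smad3-KO. Under other choices of cells and clusters it ranged from 0.725 to 1.04, so no direction is given. Over the 37 members with at least 20 UMIs the median was 1.31 against 1.0 over 9211 genes. Usp18 (2.59), Slfn5 (2.25), Trim30a (2.09) and Samd9l (2.03) were at least 2-fold higher, 4 of 37 against 12.2% of all genes, and Mx1 (0.452, from 279 and 7 UMIs) was at least 2-fold lower, 1 of 37 against 14.7%, shares that do not exceed the background. The clusters of this class went in opposite directions. In cluster 3, led by Ccr2 and Vcan, the level was lower in Smad3-KO, with 12870 CPM in 767 Smad3-WT cells and 10545 CPM in 58 Smad3-KO cells. In cluster 7, led by C1qa and Retnla, it was higher, with 7078 CPM in 323 and 9781 CPM in 44 cells.

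Trim30a and Samd9l were also higher in Smad3-KO in dendritic-like and T or NK-like cells, but not by more than counting error in fibroblast-like cells. In dendritic-like cells Trim30a had 52 and 146 UMIs (108 and 321 CPM, a ratio of 2.97), and Samd9l had 13 and 49 UMIs, a ratio of 3.99. In T or NK-like cells Samd9l had 8 and 96 UMIs, a ratio of 4.17 (2.03 to 9.93), and Trim30a had 30 and 151 UMIs, a ratio of 1.75 (1.17 to 2.68). The fibroblast-like ratios were 0.902 (0.569 to 1.43) for Trim30a and 1.64 (0.795 to 3.52) for Samd9l. Ifitm3 went the other way, with a ratio of 0.182 in dendritic-like cells (1983 and 341 UMIs). In T or NK-like cells its ratio was 0.236 (312 and 212 UMIs), but macrophage markers there stood at a median of 0.213 of their macrophage level in Smad3-WT and 0.0580 in Smad3-KO, and Ifitm3 in Smad3-WT at 0.271, so that value is close to background and no difference is read from it. The median ratio of the members was 1.12 in dendritic-like (37 members), 1.43 in T or NK-like (33 members) and 0.985 in fibroblast-like cells (26 members). T or NK-like cells of Smad3-WT were mostly in cluster 13 (37 of 61 cells), led by Gzma, Gzmb, Klrc1 and Klrb1c. Those of Smad3-KO were mostly in cluster 5 (454 of 467 cells), led by Lef1, Cd3e and Tcf7. The dendritic-like class joined cluster 9 (70 and 79 cells, led by Cd209a and Siglech) and cluster 12 (30 and 42 cells, led by Ccl22). Ratios of single genes were not split by these clusters. A different mix of T and NK cells, or of dendritic cells, in the libraries therefore cannot be told apart from a difference in level.

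To see how the ISGs were spread over single neutrophil-like cells, each cell was thinned to 500 UMIs, which left out 0 cells. At least 1 ISG UMI was found in 83.9% of Smad3-WT cells (82.2% to 85.6%, exact binomial) and in 96.0% of Smad3-KO cells (94.7% to 97.1%), where the unthinned shares were 90.1% and 98.3% at median depths of 740 and 1015 UMIs. LLC carcinoma-like Smad3-WT cells, the class of at least 50 cells with the lowest level, had a share of 58.2% after thinning from a median of 13440.5 UMIs. In Smad3-WT the thinned shares of fibroblast-like (92.2%), macrophage or monocyte-like (91.3%) and dendritic-like cells (89%) were above that of neutrophil-like cells. T or NK-like cells had 77.0% there. In Smad3-KO these 4 shares were 89.7%, 93.1%, 80.2% and 74.3%, and B-like cells had 78.9%, all below that of neutrophil-like cells. The median neutrophil-like cell of Smad3-WT had 3 ISG UMIs and that of Smad3-KO had 8. The upper end of the distributions was closer: the 90th percentiles were 20 and 22 UMIs, and 10.8% (9.41% to 12.3%) and 12.5% (10.6% to 14.6%) of cells had 20 or more. The 10% of cells with the most ISG UMIs held 46.6% of them in Smad3-WT and 29.99% in Smad3-KO, and the variance over the mean was 15.3 and 8.07. Over the whole class the libraries thus differed more in the cells with few ISG transcripts than in those with many. Whether this holds within single clusters was not tested. Within cluster 1 the medians were 3 and 6.5 UMIs, and 9.76% and 15.2% of cells had 20 or more (144 and 21 cells). In cluster 8 these shares were 15.4% and 7.41%, the latter from 2 of 27 cells. The upper ends of the class mix these clusters with others. No interval was made for the shares by cluster, and the Smad3-KO ones rest on few cells, so no difference is read from them. Macrophage or monocyte-like cells had a median of 4 UMIs in both libraries.

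**Figure D3:**
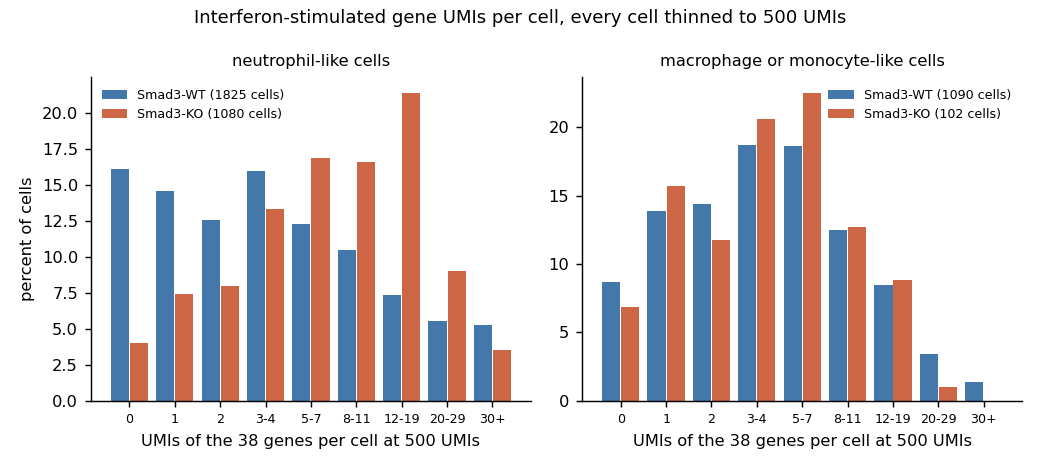
Percent of cells by their summed ISG UMIs after thinning each cell to 500 UMIs, for neutrophil-like cells (left, 1825 Smad3-WT and 1080 Smad3-KO cells) and macrophage or monocyte-like cells (right, 1090 and 102 cells). In neutrophil-like cells the Smad3-WT median is 3 UMIs and the Smad3-KO median 8, while the 90th percentiles, 20 and 22 UMIs, lie close together.

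The next values describe how far the members went together from cell to cell. Each member was set against the sum of the others over the thinned cells, for members with at least 100 thinned UMIs. The cells of 1 library share depth and background RNA, so the coefficients are descriptions. The median Pearson r was 0.396 over 26 members in Smad3-WT (1825 cells) and 0.305 over 19 members in Smad3-KO (1080 cells). In the 10% of cells with the most UMIs of the other members, a member's level was a median of 5.97 times that of the remaining cells in Smad3-WT and 3.04 times in Smad3-KO. Ifit3b (35.5 times) and Ifit1 (29.2 times) were the most concentrated in Smad3-WT, where Ifit1 was found in 61.7% of these cells and 4.14% of the rest. In Smad3-KO, Ifit1 was found in 60.2% and 15.5%, a level ratio of 6.20. Ifi27l2a, Oas3 and Samd9l were spread most evenly in Smad3-KO, at 1.77, 1.74 and 1.54 times. By pairs, Ifit3 and Ifit3b had the highest r in Smad3-WT, 0.588, and they share sequence as given above, and Ifit1 and Rsad2 the highest in Smad3-KO, 0.392.

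Other genes of the pathway were taken from a list of 79, of which 78 were in the files and 58 had at least 20 UMIs over neutrophil-like cells of both libraries. Of these 58, 13 were at least 2-fold higher and 4 at least 2-fold lower in Smad3-KO, with a median of 1.35, against 7.66% higher, 18.2% lower and a median of 0.790 over all 6056 genes. The ratios of these pathway genes cover the whole neutrophil-like class, which mostly sets cluster 1 of Smad3-WT against cluster 2 of Smad3-KO. They were not made within cluster 1, so a difference between the clusters cannot be told apart from a difference in level. Both chains of the type I interferon receptor were higher, Ifnar1 with 109 and 190 UMIs (ratio 2.14) and Ifnar2 with 176 and 342 UMIs (ratio 2.38). The type II receptor chains differed from each other, with ratios of 0.702 for Ifngr1 and 1.14 for Ifngr2, and the chains of the type III receptor, Ifnlr1 and Il10rb, had ratios of 1.47 (10 and 12 UMIs) and 1.10. Among signalling genes, Irf1, a factor induced mainly by type II interferon, had 301 and 589 UMIs (2.40). Tbk1, the kinase that activates interferon regulatory factors after sensing, had 79 and 159 UMIs (2.47), and Socs3, a feedback inhibitor of cytokine receptors, had 1513 and 491 UMIs (0.398). Receptor chains and downstream genes were thus found on both sides of 1. Other targets outside the set that were at least 2-fold higher with 50 or more UMIs were the GTPases Gbp5 (47 and 200 UMIs, ratio 5.21) and Gbp9 (3.94), Ifitm6 (342 and 898 UMIs, 3.22), the antigen presentation genes Nlrc5 (2.93) and Psmb9 (2.19), and Dtx3l (2.05), the ligase partner of PARP9. Those at least 2-fold lower were Slfn1 (3025 and 786 UMIs, 0.318), the T cell chemokine Cxcl9 (46 and 12 UMIs, 0.320) and Ly6e (1007 and 326 UMIs, 0.397). Of 8 interferon genes, Ifnb1 had 1 UMI in a Smad3-WT macrophage or monocyte-like cell, and Ifng had 25 UMIs in 10 T or NK-like cells of Smad3-WT and 4 UMIs in 3 such cells of Smad3-KO. The remaining 6 had 0 UMIs in every class, and interferon protein was not measured.

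The deposited averages of the authors' own 13 clusters, made from all barcodes without the filter, also placed clusters with neutrophil markers highest. Cluster numbers are theirs. The summed ISG average corresponded to 21558 CPM in cluster 3, 17980 in cluster 1 and 17753 in cluster 4, which all had neutrophil markers as their highest, and to 15082 in cluster 5, which had macrophage markers. Clusters 6 and 10, also with neutrophil markers, were lower than that, at 10763 and 9080. Cluster 11 was lowest, at 1372. Cluster 3 held the highest average of 21 of the 38 members, cluster 5 of 8 (Ifitm3, Ifi27l2a, Mx1, Irf7, Ifih1, Dhx58, Zbp1 and Slfn5) and cluster 1 of 4 (Ifit3b, Oasl1, Oasl2 and Oas3). Clusters 3 and 1 differed in some members and not in others. Rsad2 averaged 3.87 UMIs per 1311 in cluster 3 and 1.88 in cluster 1, Isg15 4.21 and 3.20, while Ifi27l2a averaged 0.553 and 1.47 and Ifit3b 0.267 and 0.620. Slfn4, with 4.72 and 4.64, and Ifitm3, with 2.69 and 2.80, were close. These averages come from the same cells and are no independent check.

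**Figure D4:**
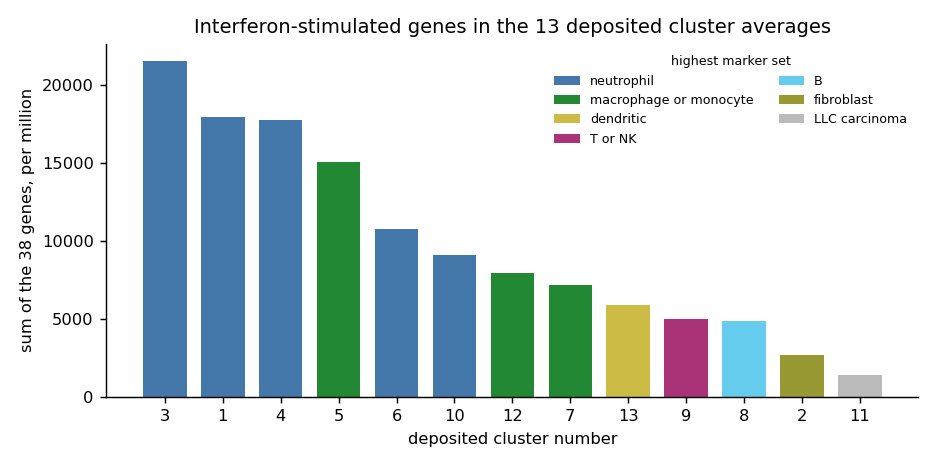
Summed level of the 38 ISGs (CPM) in each of the authors' 13 clusters, computed from the deposited cluster averages and coloured by the class whose markers are highest. Clusters 3, 1 and 4, with neutrophil markers, are the highest at 21558, 17980 and 17753 CPM, followed by cluster 5 with macrophage markers at 15082.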

How the data were processed

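Reads were processed by the authors in Cell Ranger 3.0.2, and the build named in the submitters' processing notes is mm10. The deposited matrix holds raw UMI counts per gene and barcode. The deposited averages of the libraries are a signal per gene, and those of the 13 clusters a score made the same way by the authors over both libraries, the share of a gene in the UMIs of a group, expressed per 1311 UMIs (the median of a cell). The library averages were used to assign the barcode suffixes to the libraries, whose averages were matched to within 4.91e-09 (Smad3-KO) and 3.58e-08 (Smad3-WT). The log2 fold changes and p-values that the authors deposited beside these averages were not used.

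The filter kept barcodes with 200 or more genes, a mitochondrial share below 10% and a total above 500 and below 20000 UMIs. Counts were scaled per cell and logged, and Louvain clusters (resolution 1.0, 15 neighbours, 100 principal components of 2000 variable genes, interferon genes left out) were made in scanpy 1.11.5 with igraph 0.11.9 (seed 1). A cluster took a class name when at least 3 markers were detected in 10% of its cells at 2 times the level of other cells. Doublets were not removed. A level is the summed UMIs per 1000000 UMIs of a class, and a ratio has an exact 95% interval from the split of UMIs between both groups. Genes with at least 20 UMIs over both groups were counted, with 2-fold as the limit. The 2-fold limit and the interval were tested on simulated data that hold counting error only, so spread between cells or mice was not covered. A value of 0 allows up to 3 UMIs. Since a UMI counts 1 transcript from its 5′ end, levels were not divided by length.

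With 1 library per genotype, no p-value, SE or replicate error is given, and ratios compare libraries, not genotypes. Members and lists were chosen with earlier results of these data known. Members are named in full when among the 10 with the highest mean CPM over classes and libraries or with the 6 highest or lowest ratios in neutrophil-like cells, and other members by role. Other pathway genes are named when an interferon or a receptor chain, or when at least 2-fold apart with at least 50 UMIs, and 1 result is not reported here. Sequences and promoters are those of RefSeq (GRCm38.p6), and other tools were Python 3.11.15, numpy 2.4.6, pandas 2.3.3, scipy 1.17.1 and matplotlib 3.10.9.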

Additional observations from a re-analysis of the deposited data

Results flagged for a closer look

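For 3 members the libraries differed in opposite directions in neutrophil-like and in macrophage or monocyte-like cells, with intervals on either side of 1. The Smad3-KO over Smad3-WT ratio of Gbp2 was 2.43 in neutrophil-like and 0.636 in macrophage or monocyte-like cells. That of Ifi27l2a was 0.703 and 1.31, and that of Ifitm3 was 1.18 and 0.575. With 1 library per genotype the difference between the classes was not tested, and the Smad3-KO macrophage or monocyte-like class has 102 cells. Within neutrophil-like cluster 1, Ifitm3 stood above 1 as in the whole class, at 1.45 (1.28 to 1.65). Gbp2 stood at 1.25 there, with an interval (0.882 to 1.74) that includes 1, and Ifi27l2a did not stand below 1 (1.59).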

How the results depend on the processing

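No paired analysis was possible because each genotype has 1 library. The ratio of the ISG sum in neutrophil-like cells stayed above 1 in all 15 settings tried, from 1.31 to 1.57. Cluster 8 alone, with 27 Smad3-KO cells, was not among these settings and had a ratio of 0.959 (0.852 to 1.08). Values are given here, in this order where they moved, for the Smad3-KO over Smad3-WT sum in all kept cells, in neutrophil-like and in macrophage or monocyte-like cells (the macrophage ratio), and for the neutrophil-like over macrophage or monocyte-like sum (the class ratio) in Smad3-WT and Smad3-KO. Without an upper limit on UMIs, all kept cells gave 2.24, the macrophage ratio was 0.876 and the class ratios 1.51 and 2.27. The filter given for MetaCell gave 2.22, 0.812, 1.45 and 2.35. Resolution 0.1 gave a macrophage ratio of 0.785 and a Smad3-KO class ratio of 2.35, 30 principal components gave 0.725 and 2.55, and keeping interferon genes in the clustering gave 1.04 and 1.78. Totals without mitochondrial and ribosomal protein genes gave 1.34 for all kept cells and class ratios of 1.23 and 1.59. Median-of-ratios scaling gave 1.37, 1.57 and 0.927 for all kept, neutrophil-like and macrophage or monocyte-like cells, with 12 members at least 2-fold higher. The mean over cells gave 1.02, 1.37 and 0.854, with class ratios of 1.23 and 1.97. Without the member with the most UMIs, all kept cells gave 1.83, the macrophage ratio was 1.27 and the class ratios 2.05 and 1.63. Without the granule-gene cluster, the neutrophil-like ratio was 1.40 and the Smad3-KO class ratio 1.98. Cells with a UMI of the 4 neutrophil markers gave 1.5 for all kept cells, and background subtraction a Smad3-WT class ratio of 1.37. At 1.5-fold 14 members were higher and 2 lower, and at 3-fold 1 and 0. The shares of neutrophil-like cells with an ISG UMI (Smad3-WT, Smad3-KO) were 90.1% and 98.3% unthinned, and 69.4% and 88.6% with at least 2 UMIs. Cluster 1 alone, added after the data were seen, gave a ratio of 1.46 and a Smad3-KO share of 94.2%. Where the cause of a move is not given by the setting itself, the cause was not tested. Depth limits Mx1, Ifi44 and Dhx58 in neutrophil-like cells and the 102 Smad3-KO macrophage or monocyte-like cells.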
